A study of Mus musculus with 7 samples.

Results

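The genes described here encode the subunits of the transcription factor NF-κB together with its inhibitors and feedback regulators. They were taken by gene symbol and are 10 of the 21176 genes in the expression table: 5 subunits (Nfkb1, Nfkb2, Rela, Relb and Rel) and 5 inhibitors or feedback genes (Nfkbia, Nfkbib, Nfkbie, Nfkbiz and Tnfaip3). RNA was sequenced from follicular dendritic cells (FDCs), the stromal cells that hold antigen in B-cell follicles. They were sorted by flow cytometry from the popliteal lymph nodes of male mice that had not been immunized and were 8 to 12 weeks old. The 4 WT samples carried no stated allele and the 3 Ngfr KO samples came from Ngfr knockout animals; neither the knockout allele, the cells in which it is deleted nor the strain is named in the labels. Ngfr encodes the p75 neurotrophin receptor, a member of the TNF receptor superfamily. Each sample was a pool of nodes from several animals, so the p-values describe the spread between pools and not between single mice.

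NF-κB proteins act as dimers of 5 related subunits. In the canonical pathway, receptors such as those for TNF and IL-1 activate the IKK complex, which marks IκB proteins for destruction and frees dimers containing RelA, c-Rel and p50, the product of Nfkb1. In the alternative pathway, receptors such as the lymphotoxin-β receptor and CD40 stabilise the kinase NIK, and the Nfkb2 product p100 is processed to p52, which pairs with RelB. Several inhibitors, among them Nfkbia and Tnfaip3, are themselves NF-κB targets and form negative feedback loops. Signalling through the lymphotoxin-β receptor and RelB is needed for mature FDC networks. Much of this control acts on proteins, whereas the values below are transcript levels.

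Sequence before RefSeq starts of the members is shown because the feedback genes are textbook NF-κB targets. The RefSeq windows (GRCm38.p6) available here covered 7 of the 10 genes. In the 250 bases before each start, the κB consensus, a motif of 10 letters searched by name on both strands, matched in 4 of those 7 genes, Nfkbia, Tnfaip3, Rel and Nfkb2. Counted by window, since a gene can have several starts, 5 of their 10 windows held a match; over all RefSeq windows of the same length, 1643 of 32851 (5%) held a match. The Nfkbia window, chr12:55492648-55492897 on the minus strand, is printed whole because Nfkbia had the largest change of the members, with the match in capitals.
Nfkbia: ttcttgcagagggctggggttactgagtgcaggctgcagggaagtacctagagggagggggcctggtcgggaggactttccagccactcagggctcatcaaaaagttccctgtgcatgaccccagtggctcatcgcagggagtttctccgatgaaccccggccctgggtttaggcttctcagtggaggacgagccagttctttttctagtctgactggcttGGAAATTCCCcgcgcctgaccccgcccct

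The matches of the other 3 genes are shown with up to 10 flanking bases on each side, so that the letters can be compared with those of Nfkbia. They lie at chr10:19015411-19015432 (minus strand) for Tnfaip3, chr11:23771042-23771071 (minus strand) for Rel, and chr19:46304688-46304717, chr19:46304716-46304736 and chr19:46305695-46305724 (plus strand) for Nfkb2, the last before another start of that gene. At Rel a second match overlaps the one shown, shifted by a single base, and the Nfkb2 match marked a reads on both strands. Capitals mark the match.
Tnfaip3: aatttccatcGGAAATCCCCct
Rel: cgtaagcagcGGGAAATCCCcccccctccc
Nfkb2 a: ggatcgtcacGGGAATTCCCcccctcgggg
Nfkb2 b: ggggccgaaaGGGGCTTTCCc
Nfkb2 c: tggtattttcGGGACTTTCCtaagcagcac
By the GENCODE gene bounds given below, the Nfkbia and Rel matches lie before the gene. The Tnfaip3 and Nfkb2 matches lie inside the annotated gene, since the RefSeq starts used here are further in. The Nfkbib, Nfkbie and Rela windows held no match to these letters. These matches describe the sequence only and say nothing about binding in FDCs.

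Levels are given as the authors' TMM-normalised values, in which a value of 1 stood for 230 to 295 reads depending on the library. The libraries held 17244925 to 18873542 reads in WT against 20741770 to 21538400 in the knockout, so every knockout library was deeper. Ngfr itself read 0.377, 0.677, 1.3 and 1.14 in WT and 0.305, 0.353 and 0.184 in Ngfr KO, which was 46 to 104 reads in the knockout; it was lower by limma with Benjamini-Hochberg adjustment (log2 change -0.52, SE 0.18, adjusted p = 0.0431). The call was lost in edgeR (log2 change -1.55, adjusted p = 0.0574) and with no filter (limma adjusted p = 0.122). DESeq2 called Ngfr lower (log2 change -1.57, adjusted p = 0.0132). Whether the remaining reads lie outside the deleted part of the gene is not known here. Markers of FDCs were present in every library, and 13 of the 14 were called higher in Ngfr KO, with a summed value between 1840 and 5156 in WT against 8029 to 10542 in the knockout. The 13 endothelial markers that were tested, 6 of which passed the filter only through WT, were called lower, with a summed value between 173 and 230 in WT and between 45.4 and 77.9 in the knockout. In sorted bulk RNA, fewer cells of a type and less RNA per cell cannot be told apart.

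Nfkb1 fell and Relb and Nfkbia rose in Ngfr KO, and the other 7 members did not pass the test (limma on log2(value + 1), adjusted p under 0.05). The 3 called members were 30% of the 10, against 34.2% of the 8326 genes tested, a share near that background. Among all genes tested, 18.3% were called higher and 15.8% lower. The median log2 change was 0.15 over the members and 0.02 over all genes tested. The WT and Ngfr KO values of 3 members did not overlap (Nfkb1, Nfkbia and Tnfaip3), as was so for 40.9% of all genes tested. A count model, edgeR's quasi-likelihood test on the recovered reads, called Nfkbia and Nfkb1 and not Relb, where 15.2% of 16751 genes were called.

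**Figure D1:**
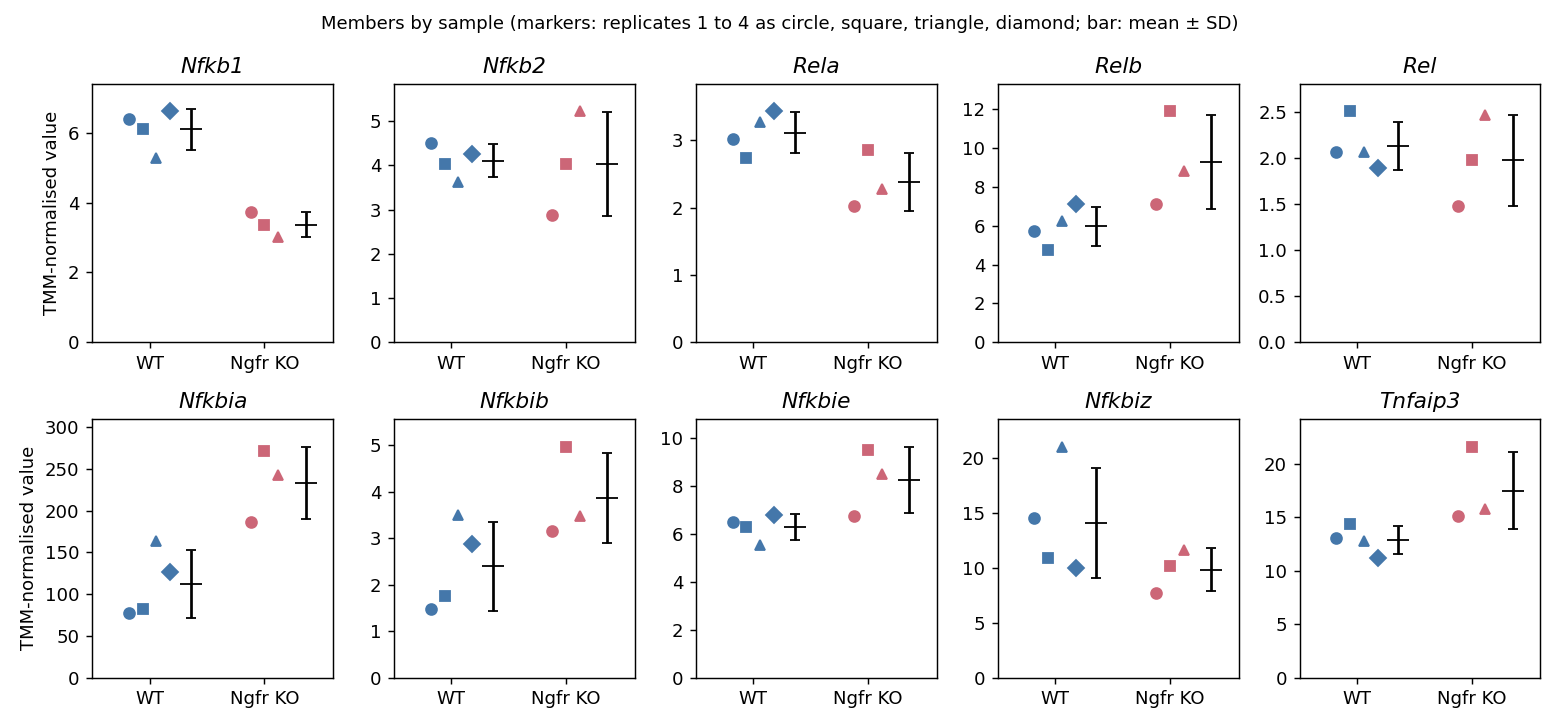
TMM-normalised value (y axis, from 0) of each member in the 4 WT and 3 Ngfr KO samples; marker shapes give the replicate number and the bar gives the mean ± SD. Nfkb1 was below every WT sample in all Ngfr KO samples, and Nfkbia and Tnfaip3 were above.

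Nfkb1 encodes p105, an IκB-like precursor that is processed to p50. It read 6.39, 6.11, 5.29 and 6.62 in the WT samples and 3.73, 3.35 and 3.03 in the Ngfr KO samples. Every knockout value lay below every WT value. The mean was 6.1 ± 0.58 (SD, n = 4) in WT and 3.37 ± 0.351 (SD, n = 3) in Ngfr KO, a ratio of 0.553. The log2 change of -0.70 (SE 0.15, 95% interval -1.03 to -0.37) passed limma's test at an adjusted p of 0.0048. It passed in 21 of 21 alternative fits, among them those that left out each library. The gene lies at chr3:135584655-135691547 on the minus strand (GRCm38, GENCODE M21). The endothelial markers given above fell in the same samples and the FDC markers rose; their part in the Nfkb1 difference was not tested.

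Nfkb2 encodes p100, the precursor of p52 and itself an inhibitor of RelB, and it lies at chr19:46304320-46312385. It read 4.5, 4.03, 3.62 and 4.25 in WT and 2.87, 4.03 and 5.22 in Ngfr KO. The knockout values spanned the whole WT range on both sides, with replicate 1 the lowest and replicate 3 the highest of all 7 samples. The log2 change was -0.04 (SE 0.18, 95% interval -0.43 to 0.35, limma adjusted p = 0.873), and its sign differed between alternative fits. Exons of Nfkb2 share 299 bases with Psd on the opposite strand, whose highest value was 1.46, and 531 bases with a bidirectional noncoding gene; whether counting used strand is not given in the sources used here.

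Relb encodes RelB, the partner of p52 in the alternative pathway, at chr7:19606217-19629438. It read 5.74, 4.74, 6.25 and 7.15 in WT and 7.15, 11.9 and 8.8 in Ngfr KO. The groups touched, since WT replicate 4 and Ngfr KO replicate 1 read the same to 3 digits, and the other 2 knockout samples stood above all WT samples. The mean was 5.97 ± 1 (SD, n = 4) in WT and 9.29 ± 2.43 (SD, n = 3) in Ngfr KO, a ratio of 1.56. The log2 change was 0.55 (SE 0.19, 95% interval 0.13 to 0.97, limma adjusted p = 0.0449). It was higher in 21 of 21 alternative fits but called in 11; over all 21 the adjusted p ran from 0.0169 to 0.197. The call was lost in edgeR (adjusted p = 0.0616) and when WT replicates 1, 2 or 3 or Ngfr KO replicates 2 or 3 were left out, with log2 changes of 0.54, 0.46, 0.57, 0.37 and 0.57. B cells also express Relb: 1 of the 8 tested B-cell markers (Ms4a1) was called higher, the list without Igkc summed to 23.8 to 37.6 in WT against 23.7 to 54.4 in the knockout, and none was at 0. The B-cell marker score is the mean log2(value + 1) of all listed B-cell markers, Igkc included, which read 180 in WT replicate 3. Adjusting for this score, the Relb change was 0.53 (limma adjusted p = 0.0564). The part of B cells in the Relb difference was not tested.

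Rela encodes RelA (p65), the main activating subunit of the canonical pathway, at chr19:5637483-5648130. It read 3.02, 2.74, 3.27 and 3.43 in WT and 2.02, 2.86 and 2.28 in Ngfr KO. Only Ngfr KO replicate 2 entered the WT range. The log2 change of -0.29 (SE 0.15, 95% interval -0.61 to 0.04) did not pass limma's test (adjusted p = 0.154). It passed in 1 of 21 alternative fits, with array weights (limma adjusted p = 0.0226).

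Rel encodes c-Rel, best known from lymphocytes, at chr11:23736847-23770970. It read 2.07, 2.51, 2.07 and 1.89 in WT and 1.48, 1.98 and 2.47 in Ngfr KO. The groups overlapped, and the log2 change was -0.09 (SE 0.16, 95% interval -0.43 to 0.26, limma adjusted p = 0.693). The interval leaves room for changes of either sign. Rel was called lower in 1 of 21 alternative fits, with array weights (limma adjusted p = 0.0213).

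Nfkbia encodes IκBα, which holds RelA dimers in the cytoplasm and is resynthesised when NF-κB is active. It read 77.4, 81.9, 164 and 127 in WT and 186, 271 and 243 in Ngfr KO. All 3 knockout samples lay above all 4 WT samples, and WT replicates 1 and 2 lay well below WT replicates 3 and 4. The mean was 113 ± 41 (SD, n = 4) in WT and 233 ± 43.1 (SD, n = 3) in Ngfr KO, a ratio of 2.07. The log2 change was 1.10 (SE 0.29, 95% interval 0.46 to 1.74, limma adjusted p = 0.0144). It was called in 18 of 21 alternative fits, with adjusted p from 0.000552 to 0.0777. The call was lost without WT replicate 2 (log2 change 0.97, limma adjusted p = 0.0501) and without Ngfr KO replicate 2 (0.98, limma adjusted p = 0.0552). The gene lies at chr12:55489410-55492647, just downstream of the promoter window printed above. WT replicate 3, the highest WT sample for Nfkbia, Nfkbib and Nfkbiz, also had the highest summed immediate early and stress genes (1026, against 487 to 621 in the other WT samples and 339 to 703 in Ngfr KO). Of the 17 such genes tested, 7 were called lower (Fosb, Jund, Egr3, Zfp36, Btg2, Nr4a1 and Socs3) and 0 higher by limma. The counts were 8 and 0 at an unadjusted p under 0.05, and 4 and 0 in edgeR. Among all genes tested limma called 15.8% lower and 18.3% higher, and edgeR called 15.2% in either direction. Egr3 and Nr4a1 passed the filter only through WT, which favours a lower call. None of these genes was at 0 in any sample, and their part in the Nfkbia difference was not tested.

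Nfkbib and Nfkbie encode IκBβ and IκBε, further cytoplasmic inhibitors. Nfkbib (chr7:28758251-28767512) read 1.47, 1.75, 3.51 and 2.88 in WT and 3.15, 4.97 and 3.49 in Ngfr KO. The WT samples fell into a lower and a higher pair. Of the higher pair only WT replicate 3 (3.51) reached into the knockout range, and WT replicate 4 (2.88) lay below it. Its log2 change was 0.54 (SE 0.22, 95% interval 0.06 to 1.02) and missed limma's threshold (adjusted p = 0.0746). It passed without WT replicate 3 (limma adjusted p = 0.0285) and with array weights (0.00719). Nfkbib exons share 42 bases with Sirt2, whose highest value was 2.92, and 314 bases with Ccer2, both on the opposite strand. Whether counting used strand is not known for Nfkbib either.

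Nfkbie (chr17:45555703-45563169) read 6.49, 6.28, 5.55 and 6.8 in WT and 6.74, 9.49 and 8.49 in Ngfr KO. Ngfr KO replicate 1 lay just under the highest WT sample and the other knockout samples above all of them. The log2 change was 0.34 (SE 0.16, 95% interval -0.02 to 0.69, limma adjusted p = 0.126), and it passed in 0 of 21 alternative fits, edgeR (adjusted p = 0.119) included.

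Nfkbiz encodes IκBζ, a nuclear IκB protein that acts with p50 at a subset of targets, at chr16:55811375-55838899. It read 14.5, 10.9, 21 and 10 in WT and 7.7, 10.2 and 11.6 in Ngfr KO. The groups overlapped, and WT replicate 3 stood above the others. The log2 change was -0.44 (SE 0.24, 95% interval -0.96 to 0.08, limma adjusted p = 0.169). It passed in 2 of 21 alternative fits, with quantile normalization and with array weights (lowest limma adjusted p = 0.018).

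Tnfaip3 encodes a ubiquitin-editing enzyme that shuts off signalling upstream of IKK, at chr10:19000910-19015657. It read 13.1, 14.4, 12.8 and 11.2 in WT and 15.1, 21.6 and 15.8 in Ngfr KO. Every knockout sample was above every WT sample, but the gap between the highest WT and the lowest knockout sample was small. The log2 change of 0.40 (SE 0.18, 95% interval 0.01 to 0.80) did not pass limma's test after adjustment (adjusted p = 0.0985). It passed in 1 of 21 alternative fits, with the trend with length and GC content removed (limma adjusted p = 0.0369).

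**Figure D2:**
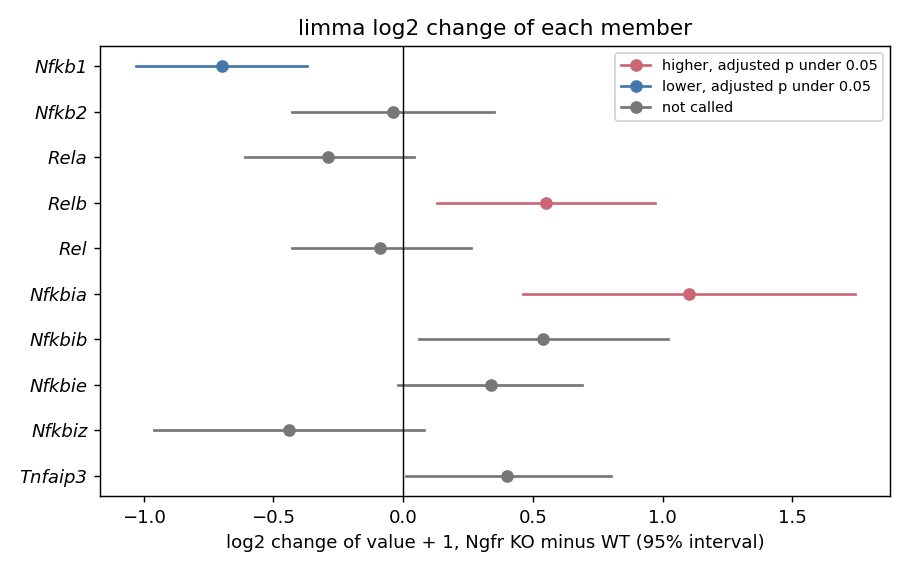
limma log2 change of value + 1 (x axis, Ngfr KO minus WT) for each member with its 95% interval; colour marks the members that passed the adjusted threshold. Nfkb1 sits at -0.70, Relb at 0.55 and Nfkbia at 1.10, and the intervals of Nfkb2, Rela, Rel, Nfkbie and Nfkbiz include 0.

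Ratios of reads within a library do not depend on how libraries were scaled. Relb gave 0.776 to 1.18 reads per Nfkb1 read in WT against 1.92 to 3.56 in the knockout. Relb over Rela lay between 1.73 and 2.08 in WT and between 3.54 and 4.17 in the knockout. Neither range overlapped, and in both the knockout libraries were the higher. Nfkbia over Rela, inhibitor against the subunit it holds, was 25.6 to 50.2 in WT against 92.1 to 107 in the knockout. Nfkb2 over Nfkb1, the pair of precursor subunits, was 0.642 to 0.704 in WT and 0.769, 1.2 and 1.72 in Ngfr KO, so that the knockout libraries differed more among themselves than the WT libraries. These ratios restate the member values above and were not tested.

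Per kb of the longest protein-coding transcript, Relb made up 35.6% to 43.3% of the 5 subunit transcripts in WT libraries and 55% to 62.9% in Ngfr KO libraries. The Nfkb1 share was 19.7% to 24.6% in WT against 9.49% to 15.5% in the knockout. The Rela share was 16.6% to 18.4% in WT against 11.6% to 12.8% in the knockout. The 5 shares make up a whole, so a larger Relb share lowers the others. The Rela value itself overlapped between the groups and was not called. The Nfkb2 share overlapped between the groups (14.4% to 17.4% and 12.2% to 18.7%), as did that of Rel (3.39% to 5.58% and 3.09% to 4.57%). Relb was thus the most abundant subunit transcript per length in all 7 libraries. With all annotated exons as the length, the Relb share was 31.8% to 39.3% in WT against 47.9% to 56.6% in the knockout, and the Nfkb1 share 10.5% to 13.2% and 5.13% to 8.52%.

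**Figure D3:**
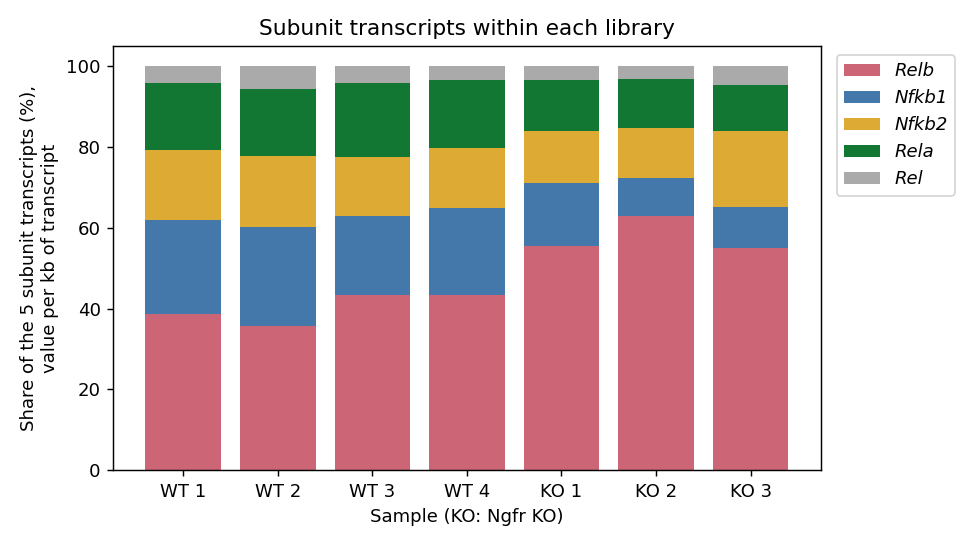
Share of the 5 subunit transcripts in each library (stacked bars, percent of summed value per kb of longest protein-coding transcript). Relb, at the base of each bar, takes 35.6% to 43.3% in the WT samples and 55% to 62.9% in the Ngfr KO samples, and Nfkb1 takes a smaller share in the latter.

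On the same scale of value per kb, Nfkbia was the most abundant member in both groups, at 71.3 ± 26 (SD, n = 4) in WT and 148 ± 27.3 (SD, n = 3) in Ngfr KO. In WT it was followed by Nfkbiz (3.43), Tnfaip3 (2.91), Relb (2.7) and Nfkbie (2.58), whose ranges overlapped from one to the next. A second band held Nfkb1 (1.48), Nfkbib (1.17), Rela (1.15) and Nfkb2 (1.07), and Rel was lowest at 0.286. Ranges did not overlap at the steps from Nfkbia to Nfkbiz, from Nfkbie to Nfkb1 and from Nfkb2 to Rel. In Ngfr KO the order below Nfkbia was Relb (4.21), Tnfaip3 (3.96), Nfkbie (3.38), Nfkbiz (2.39), Nfkbib (1.88), Nfkb2 (1.05), Rela (0.879), Nfkb1 (0.819) and Rel (0.265). There the ranges were separate between Nfkbia and Relb, between Nfkbib and Nfkb2 and between Nfkb1 and Rel. On this length Relb held rank 4 in WT and rank 2 in the knockout, and Nfkb1 rank 6 and rank 9. The order depends on the length used: with all annotated exons Nfkb1 held rank 9 in both groups, and Relb rank 5 in WT and rank 4 in the knockout.

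The rest of the pathway was read from 7 lists ordered by role, which together hold 86 genes. Of these, 67 were tested, 16 were called higher and 6 lower, with a median log2 change of 0.16 against 0.02 for all genes. The called share of 32.8% was near the 34.2% of all genes tested. By direction it was 23.9% higher and 8.96% lower, against 18.3% and 15.8% of all genes tested. Of the 67 genes, 6 passed the filter on low values only through the knockout samples (Traf6, Tradd, Cd40, Tnfrsf12a, Tnfrsf9 and Tnfsf11) and 6 only through the WT samples (Map3k7, Traf5, Rnf31, Card10, Cxcl2 and Ccl2), so that the filter shapes the list counts. Of the 11 tested IKK and upstream kinase genes 0 were called higher and 1 lower by limma (0 and 2 at an unadjusted p under 0.05), and edgeR called 0 in either direction. The limma call was Irak1, a kinase of the IL-1 receptor and Toll-like receptor pathway, at 4.54 ± 0.388 (SD, n = 4) in WT and 2.77 ± 0.941 (SD, n = 3) in Ngfr KO (log2 change -0.58, SE 0.18, limma adjusted p = 0.0262); in edgeR its adjusted p was 0.0738. Its call was also lost without WT replicate 1 (limma adjusted p = 0.0536), Ngfr KO replicate 1 (0.0824) or Ngfr KO replicate 2 (0.128). The IKK subunit genes Chuk (log2 change -0.15), Ikbkb (-0.41) and Ikbkg (0.07) and the NIK gene Map3k14 (-0.29) were not called. Ikbkb passed without WT replicate 4 (-0.58, limma adjusted p = 0.0391), and with array weights both Ikbkb (0.0172) and Map3k14 (0.00225) passed. Of the 3 other IκB-family genes only Bcl3 passed the filter on low values, and its log2 change of 0.22 was not called; Nfkbid read 0.494 to 1.23 in WT against 0.509 to 0.692 in the knockout.

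Among 21 tested TRAF, ubiquitin and adaptor genes, 4 were called higher (Traf1, Tnip2, Tradd and Myd88) and 3 lower (Rnf31, Malt1 and Card10). The called share of 33.3% was near the 34.2% of all genes tested. edgeR called 3 higher and 1 lower, without Tradd (adjusted p = 0.055), Rnf31 (0.0662) and Malt1 (0.0689). Traf1, a TRAF adaptor that is itself an NF-κB target, read 3.06, 4.69, 3.49 and 3.48 in WT and 12.8, 12 and 13.3 in Ngfr KO. The knockout samples agreed closely and lay far above WT (log2 change 1.56, SE 0.16, limma adjusted p = 0.000203). Tnip2, which encodes a partner of the Tnfaip3 protein, went from 2.66 ± 0.481 (SD, n = 4) to 7.72 ± 1.22 (SD, n = 3) (log2 change 1.25, SE 0.17, limma adjusted p = 0.000525). Card10, a scaffold that links receptors to Bcl10 and Malt1, went from 1.73 ± 0.685 (SD, n = 4) to 0.418 ± 0.0339 (SD, n = 3) (log2 change -0.92, limma adjusted p = 0.00319). The Card10 call was lost when the trend with length and GC content was removed (log2 change -0.51, limma adjusted p = 0.0559). The components that restrain NIK were not called: Traf2 changed by 0.42 on the log2 scale, Traf3 by -0.32, Birc2 by 0.22 and Birc3 by 0.28. Traf2 passed without WT replicate 4 (0.60, limma adjusted p = 0.0287), and Traf3 and Birc3 passed with array weights (0.0101 and 0.011). Cyld, a deubiquitinase that limits the pathway, changed by -0.42 and missed the threshold (limma adjusted p = 0.0629), which it passed without Ngfr KO replicate 3 (0.0204), with quantile normalization (0.0321) and with array weights (0.00147).

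Of 11 tested receptors 4 were called higher (Cd40, Tnfrsf12a, Tnfrsf9 and Il1r1) and 0 lower by limma, and the first 3 passed the filter only through the knockout samples. The called share was 36.4%. Among all genes tested limma called 34.2% in either direction and 18.3% higher, and edgeR called 15.2% in either direction. edgeR, which tested 14, called Cd40, Tnfrsf9, Il1r1 and Tnfrsf13c higher, 0 lower, and did not call Tnfrsf12a (adjusted p = 0.0619). At an unadjusted limma p under 0.05 there was 1 lower. Cd40, a receptor that feeds both pathways, read 0.572, 0.614, 0.83 and 1.07 in WT and 3.65, 5.64 and 4.64 in Ngfr KO (log2 change 1.67, SE 0.17, limma adjusted p = 0.000153). Tnfrsf9, which encodes 4-1BB, went from 0.913 ± 0.72 (SD, n = 4) to 14.4 ± 4.82 (SD, n = 3) (log2 change 3.05, limma adjusted p = 0.000135). Il1r1, an IL-1 receptor, went from 2.52 ± 0.782 (SD, n = 4) to 5.56 ± 0.282 (SD, n = 3) (log2 change 0.92, limma adjusted p = 0.00327). For Cd40, Tnfrsf9 and Il1r1 no WT value reached a knockout value, and the groups did not overlap in 40.9% of all genes tested. The filter favours such a split for Cd40 and Tnfrsf9. The ranges of Tnfrsf12a overlapped. Ltbr, the lymphotoxin-β receptor, changed by -0.08 and Tnfrsf1a, a TNF receptor, by 0.16 on the log2 scale, and neither was called. B cells express Cd40 as well; the B-cell marker sums stand with Relb above. Adjusting for the B-cell marker score, Igkc included, the Cd40 change was 1.65 (limma adjusted p = 0.000485). The part of B cells in the Cd40 difference was not tested.

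Of the 10 ligands 3 passed the filter, Tnfsf11 only through the knockout samples. Tnfsf12, which stayed under the filter, read 0.453 to 0.634 in WT against 0.109 to 0.272 in the knockout. Tnfsf11, which encodes RANKL, went from 0.802 ± 0.66 (SD, n = 4) to 3.43 ± 0.728 (SD, n = 3) (log2 change 1.35, limma adjusted p = 0.00165). Tnfsf13b, which encodes the B-cell survival factor BAFF, went from 4.53 ± 1.67 (SD, n = 4) to 9.43 ± 1.28 (SD, n = 3) (log2 change 0.97, limma adjusted p = 0.0112). Ltb, which encodes lymphotoxin-β, fell from 5.11 ± 1.26 (SD, n = 4) to 2.19 ± 0.327 (SD, n = 3) (log2 change -0.92, limma adjusted p = 0.0033).

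Canonical target genes were called in both directions, and no alternative target was called lower. Of 15 tested canonical targets 4 were called higher (Icam1, Vcam1, Ccl20 and Sod2) and 1 lower (Csf1). Of 7 alternative targets 4 were called higher (Ccl19, Madcam1, Tnfsf11 and Tnfsf13b) and 0 lower. The counts of both lists were the same in edgeR and at an unadjusted limma p under 0.05. Among all genes tested limma called 18.3% higher and 15.8% lower. Tnfsf11 and Tnfsf13b are the ligands already counted above. Tnfsf11 passed the filter only through the knockout samples, and the canonical targets Cxcl2 and Ccl2 only through WT. Ccl20, a chemokine, read 22.4, 7.18, 17.8 and 46.5 in WT and 254, 47.6 and 556 in Ngfr KO (log2 change 3.23, SE 0.70, limma adjusted p = 0.00516). The call was lost with no filter (limma adjusted p = 0.0544) and with robust moderation without a trend (0.0585). Its knockout samples spread widely and the lowest barely cleared the highest WT sample. Madcam1, an adhesion molecule of FDCs, read 15.2, 26.6, 29 and 29.8 in WT and 152, 146 and 193 in Ngfr KO (log2 change 2.69, limma adjusted p = 0.000135). Vcam1, an adhesion molecule, went from 101 ± 34.6 (SD, n = 4) to 253 ± 18.3 (SD, n = 3) (log2 change 1.38, limma adjusted p = 0.00324). Ccl19, a chemokine of lymph node stroma, went from 33.5 ± 13.9 (SD, n = 4) to 77.5 ± 19.6 (SD, n = 3) (log2 change 1.24, limma adjusted p = 0.00777). Csf1, the macrophage growth factor, fell from 20.6 ± 6.9 (SD, n = 4) to 9.11 ± 2.49 (SD, n = 3) (log2 change -1.07, limma adjusted p = 0.00703). Madcam1, Vcam1 and Icam1 are also on the FDC marker list, of which 13 of 14 were called higher and Cxcl13 was not, and Ccl19 is on the list of reticular stroma markers, of which 3 of 8 tested were called higher (Pdgfra, Ccl19 and Dcn) and whose sum was 92.5 to 226 in WT against 252 to 361 in the knockout. The part of these cell types in the target differences was not tested.

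**Figure D4:**
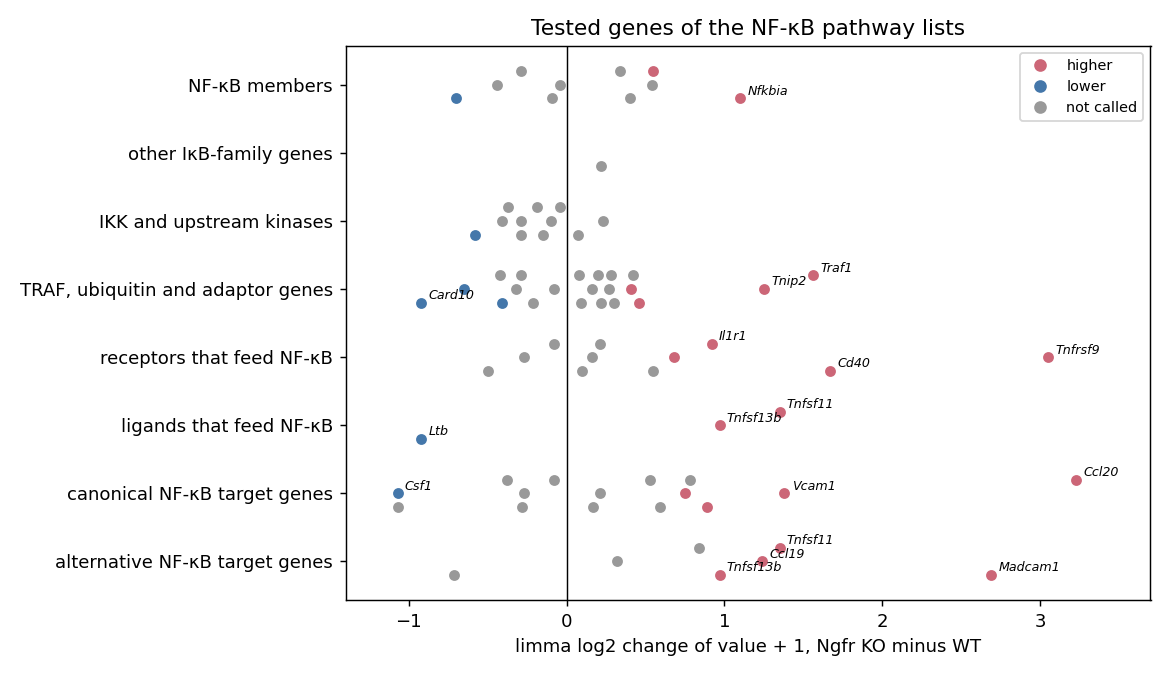
limma log2 change (x axis, Ngfr KO minus WT) of each tested gene of the members and the 7 pathway lists, 1 point a gene; red points were called higher, blue lower and grey not called. The kinase row holds 1 called gene, and Tnfrsf9 (3.05), Ccl20 (3.23) and Madcam1 (2.69) stand far to the right.

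Myeloid cells are another source of NF-κB transcripts in a lymph node sort. Only Lyz2 and Cd14 of the 10 myeloid markers in the table passed the filter; limma called both higher, while edgeR called Cd14 higher and C1qb lower and not Lyz2 (adjusted p = 0.0576). The list summed to 4.09 to 8.68 in WT against 9.22 to 42.4 in the knockout. In the highest library, Ngfr KO replicate 3, Lyz2 read 28.1, Cd14 11.7 and Cd68 1.23. Of the markers under the filter, Cd68 was above WT in every knockout library (0.122 to 0.265 in WT, 0.316 to 1.23 in the knockout). C1qb was below WT in every knockout library, and the ranges of Csf1r and Siglec1 overlapped between the groups. Itgam, Adgre1, C1qa, C1qb and C1qc were at 0 in at least 1 library. All 5 tested T-cell markers passed the filter only through WT. Of these 0 were called by limma, by edgeR or at an unadjusted limma p under 0.05. The T-cell list summed to 4.79 to 12.6 in WT against 4.34 to 11.6 in the knockout, with Cd4 at 0 in at least 1 library. The part of these cells in the member values was not tested.

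The genes whose pattern over the 7 samples was most like that of Nfkbia, by the root mean square difference of centred log2 values among 8325 genes, were Pdia3 (0.119), Gm8773 (0.125) and Lmna (0.138). Pdia3, a protein disulphide isomerase of the endoplasmic reticulum, had a log2 change of 1.16 and Lmna, which encodes nuclear lamins A and C, one of 1.11. For Nfkb1 they were Kdm7a (0.0384), Gm37760 (0.0565) and Stx3 (0.0728). Kdm7a, a histone demethylase, had a log2 change of -0.69 and Stx3, a membrane fusion protein, one of -0.65. The likeness is a description over these samples.

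**Figure D5:**
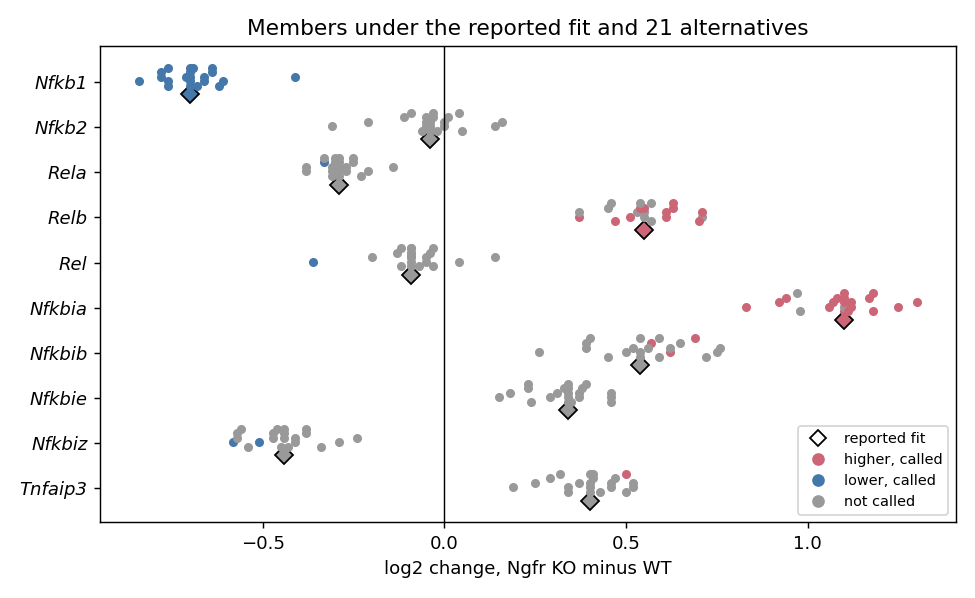
Log2 change (x axis, Ngfr KO minus WT) of each member under the reported fit (diamond) and 21 alternatives (points, coloured where the adjusted p was under 0.05). Nfkb1 is called in all 21, Nfkbia in 18 and Relb in 11, and the points of Nfkb2 and Rel lie on both sides of 0.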

How the data were processed

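RNA from sorted FDCs was amplified with the SMART-Seq v4 Ultra Low Input kit and made into Nextera XT libraries, per the labels' protocols. The submitters' processing notes name bcl2fastq 2.20.0.422 and the build mm10. The aligner, the counter, the annotation and the TMM software are not given in the sources used here. The deposited table holds, as the authors' signal values, TMM-normalised expression per gene. In every library 100% of the values were whole multiples of the value of 1 read, within a tolerance of 0.02 reads, so the reads behind them were recovered.

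Genes reaching a value of 1 in 3 or more samples (8326 of 21176) were tested with limma 3.58.1 (R 4.3.3; lmFit, then eBayes with a trend) on log2(value + 1), Ngfr KO against WT, with Benjamini-Hochberg adjustment over all of them and a threshold of 0.05. A fold change on this scale understates the change of low genes. Ngfr, which does not pass that filter, was added to the same fit. edgeR 4.0.16 (quasi-likelihood) and DESeq2 1.42.0 on recovered reads were alternatives, with other pseudocounts, filters, scalings, weights, covariates and each library left out. On simulated data with 200 genes changed 4-fold, limma recovered 92.5%, edgeR 95% and DESeq2 99% of them. Unchanged genes made up 8.87%, 7.32% and 31.5% of their calls. With no gene changed they called 0, 0 and 27 genes. The members changed by less than 4-fold, so these rates do not describe recovery of changes of their size.

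Gene positions and lengths came from GENCODE M21 (GRCm38), which matched 21118 of the 21176 genes. Named were the 10 members, Ngfr, the 3 called genes of largest change in each list, fixed core pathway genes, and the 3 genes most like the members with the largest and the most negative change. Called members of a list are also named where they are few, after their values were seen. The members and lists were chosen with earlier results of these data known.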

Additional observations from a re-analysis of the deposited data

Results flagged for a closer look

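Of 53 results examined for a sample far from the rest of its group, 3 had one, where 2.65 are expected by chance at 1 in 20. Only the 4 WT samples were examined, since 3 Ngfr KO samples are too few. Traf2 read 3.2 in WT replicate 4 against 1.54 to 1.61 in the other WT samples, a gap of 0.956 of the group's range. Without that library Traf2 was called higher (log2 change 0.60, limma adjusted p = 0.0287). The summed reticular stroma markers were 226 in the same library against 92.5 to 103 in the others, a gap of 0.921. The summed B-cell markers were 203 in WT replicate 3 against 34.5 to 53 in the others, a gap of 0.89, and without Igkc that library had the lowest WT sum, 23.8.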

How the results depend on the processing

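Nfkb1 was called lower in all 21 alternatives (log2 change -0.84 to -0.41). The number of genes called (2844) was 536 with a stricter filter (67.2% of them higher, against 53.7%), 4881 with array weights and 1614 to 3006 when each library was left out; it fell by more than 1.5 times without WT replicate 1 (1870), Ngfr KO replicate 1 (1803) or Ngfr KO replicate 2 (1614). Members called (3) were 1 with no filter, 7 with array weights and 1 to 3 with a library left out (1 without WT replicate 2 or Ngfr KO replicate 2). Pathway genes called (22) were 9 with the stricter filter and 36 with array weights. The sign of Nfkb2 turned with median ratio scaling (0.01), edgeR (0.04), DESeq2 (0.05) and the length and GC trend removed (0.16), and ran from -0.21 to 0.14 over left-out libraries. With that trend removed Rel was 0.14, Traf3 0.03 and Tnfrsf1a -0.04; with array weights Chuk was 0.10 and Tnfrsf1a -0.04. Over left-out libraries Rel ran from -0.20 to 0.04, Ikbkg from -0.00 to 0.12, Ltbr from -0.19 to 0.01, Tnfrsf1a from -0.02 to 0.31 and Bcl3 from -0.11 to 0.40. The causes were not tested. With the replicate number as a block, 2717 genes and 4 members were called (Nfkbib besides the other 3), Traf2 (0.60, adjusted p = 0.0282) and Ikbkb (-0.58, 0.0299) were called too, and Ltbr was 0.01; deviations of same-numbered samples correlated at 0.298, -0.0593 and -0.0108, so the numbers were not taken to pair samples. DESeq2 called 4005 genes. The lowest read count of a member in any library was 377; fitted to reads thinned to the smallest library, the same 3 members were called.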
